A study of Homo sapiens with 6 samples.

Results

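The 7 genes described here make noncoding RNAs of the nucleus and of RNA-processing particles: MALAT1 and NEAT1, which are long, and RPPH1, RN7SL1, RN7SL2, RN7SK and RMRP, which are small and structural. They were chosen by symbol from the 59248 symbols of the deposited gene table, for differing between the groups or for their relation to those that did, so the difference between the groups is given for each of them as a description, without a test. RNA was sequenced from Jurkat, a cell line long established from a human T-cell leukemia. The group called overexpression here held 3 libraries whose genotype is PDCD1 28 OE, where the 28 is a superscript in the labels: an isoform of PD-1, the inhibitory receptor encoded by PDCD1, that keeps 28 bp of intron 2. The vector group held 3 libraries of the same line. The growth protocol calls the line of both groups Jurkat KO-1 and does not say what was changed in it. The labels give no dose or time and name no separate cultures, so every p-value reflects library-to-library spread alone, and that spread may be technical.

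MALAT1 and NEAT1 are transcribed from neighbouring genes, stay in the nucleus and carry no poly(A) tail in their mature long forms. MALAT1 gathers in nuclear speckles, which are rich in splicing factors, and the long form of NEAT1 is the scaffold of paraspeckles. Their 3′ ends are made by RNase P, the enzyme that trims the front of tRNAs: it cuts just before a tRNA-like structure, and the end left behind folds an A-rich tract into a triple helix with U-rich motifs. RPPH1 is the catalytic RNA of RNase P, and RMRP is the related RNA of RNase MRP, which works on ribosomal RNA. RN7SL1 and RN7SL2 encode 7SL, the RNA core of the signal recognition particle (SRP), which brings ribosomes that make secreted and membrane proteins to the endoplasmic reticulum. RN7SK holds the elongation kinase P-TEFb in an inactive particle. These small RNAs are made by RNA polymerase III and have no poly(A) tail.

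The 3′ ends of MALAT1 and NEAT1 are shown because they join these 2 RNAs to RPPH1. Each line gives the 150 bases that lie directly before the annotated tRNA-like RNA, 5′ to 3′ on the plus strand of hg38, from GENCODE 29. They span chr11:65505967-65506116 for MALAT1 and chr11:65445391-65445540 for NEAT1. Capitals mark CTCAGGTTTTGCTTTT, the longest run that the 2 ends share, which holds a U-rich motif (written here with T), and AAAAAGCAAAA, the A-rich run that they share at the very end.
MALAT1: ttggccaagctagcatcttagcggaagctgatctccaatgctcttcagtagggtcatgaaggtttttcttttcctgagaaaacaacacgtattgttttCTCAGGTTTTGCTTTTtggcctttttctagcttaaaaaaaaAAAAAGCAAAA
NEAT1: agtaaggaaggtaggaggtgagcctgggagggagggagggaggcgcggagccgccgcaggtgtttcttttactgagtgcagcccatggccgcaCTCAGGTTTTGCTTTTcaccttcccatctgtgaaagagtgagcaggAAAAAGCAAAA
Both runs stood once in each end, the 16-base run 36 bases before the end in MALAT1 and 41 bases before it in NEAT1, and the 11-base run at the end itself. The last 150 bases of 199567 annotated transcripts of at least that length were searched for them on the transcript strand. AAAAAGCAAAA was found in 0.0606% of these transcripts. CTCAGGTTTTGCTTTT was found in 1, or 0.000501%, and that transcript is the long form of NEAT1 itself, whose annotated end is the one shown. The annotated end of MALAT1 lies beyond the bases shown, so its own run was outside the searched window. Both runs were picked because these 2 ends share them, and a run of 16 bases is rare in any case. Nothing is read from how rarely they were found. The annotated tRNA-like RNAs that follow are 57 nt for MALAT1 and 58 nt for NEAT1.

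RPPH1 is shown because its mean level was the furthest apart between the groups, in folds, among the 7. It is transcribed from the minus strand at chr14:20343075-20343407 and is 333 nt long, of which the first 300 bases are given, without capitals.
RPPH1: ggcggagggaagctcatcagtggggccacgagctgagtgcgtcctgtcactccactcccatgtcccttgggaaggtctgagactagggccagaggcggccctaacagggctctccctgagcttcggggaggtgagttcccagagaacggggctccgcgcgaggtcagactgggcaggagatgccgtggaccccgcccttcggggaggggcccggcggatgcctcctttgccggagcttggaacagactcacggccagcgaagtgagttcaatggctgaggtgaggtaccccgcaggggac
The reads of RN7SL1 and RN7SL2 can hardly be told apart. RN7SL1 lies at chr14:49586580-49586878 on the plus strand and RN7SL2 at chr14:49862550-49862849 on the minus strand. They match over 295 bases, or 98.3% of the alignment, with 4 substitutions, 1 gap and a longest identical run of 205 bases. A read that falls inside such a run fits both genes, and how the authors divided it is not given in the sources used here.

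Values are estimated counts, 59911578 to 84220970 per library in all, and CPM, counts per 1000000 counts of a library, scaled by edgeR's TMM factors. Of the 59248 symbols, 21055 passed edgeR's expression filter, and 46.1% of those had an adjusted p under 0.05 between the groups. In a principal component analysis the groups parted on component 1 (61.8% of the variance), and vector replicate 2 lay apart from the other vector libraries on component 2 (12.1%). PDCD1 had 945, 1059 and 807 estimated counts in overexpression and 14, 18 and 15 in vector. All 12 T-cell markers were above the floor of 3 read pairs, taken as 12 estimated counts, in every library, and their sum was 2640 to 2700 CPM in overexpression and 2790 to 2910 CPM in vector, most of it from LCK, TRBC1, CD3E and TAL1. Single T-cell markers differed more: CD2 had 3.98 to 4.58 CPM against 23.6 to 26.7 CPM and CD7 16.4 to 18.4 CPM against 68.8 to 84.0 CPM, while TRBC1 went the other way with 544 to 565 CPM against 392 to 445 CPM. Of 5 B-cell markers 3 were above that floor throughout, CD79A foremost, with sums of 28.8 to 37.0 CPM and 41.7 to 60.1 CPM, while MS4A1 and PAX5 were at or near 0. Myeloid markers summed to 0.658 to 0.924 CPM in overexpression and 1.05 to 1.75 CPM in vector, and epithelial markers to 0.785 to 1.58 CPM and 0.192 to 0.431 CPM, with EPCAM and KRT5 at 0. Erythroid markers summed to 0.816 to 1.68 CPM in overexpression and 1.55 to 21.3 CPM in vector, where HBA1 held 1178, 74 and 1164 estimated counts against 16 at most in overexpression. The part of these markers in the results was not tested. In bulk RNA, fewer cells with a transcript and less of it in each cell cannot be told apart.

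Of the 7 RNAs, 6 passed the filter. MALAT1, RN7SL1 and RN7SL2 were higher in overexpression with an adjusted p under 0.05, a call made for 22.6% of all genes tested, and NEAT1 and RPPH1 were lower, a call made for 23.4%. The groups did not overlap for 6 of the 7, as for 58.7% of all genes tested. Nothing is read from these counts, because the same contrast chose the genes.

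**Figure D1:**
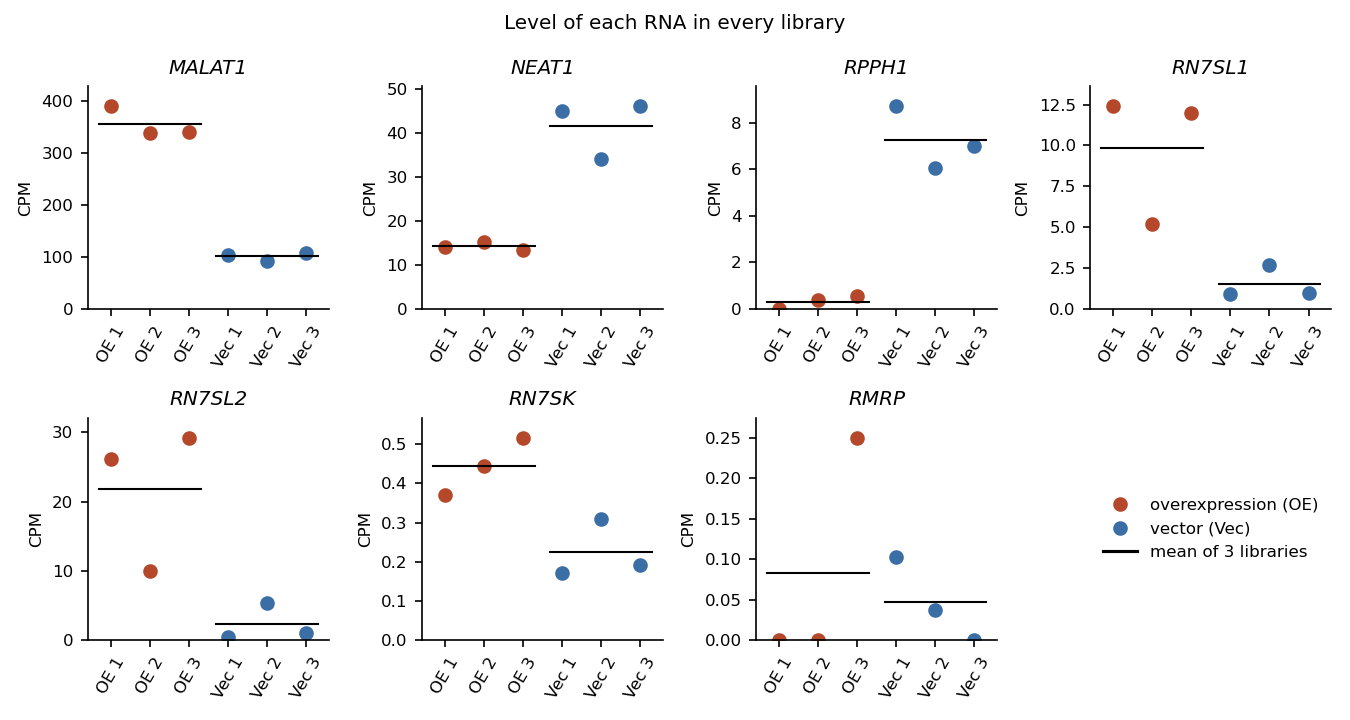
CPM of each RNA (vertical axes, linear and starting at 0, 1 scale per panel) in the 3 overexpression (OE) and 3 vector (Vec) libraries; points are libraries and lines are group means. MALAT1, RN7SL1, RN7SL2 and RN7SK lie higher in every overexpression library, NEAT1 and RPPH1 lower, and RMRP overlaps.

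MALAT1 was the most abundant of the 7 in CPM and was higher in overexpression. The gene lies at chr11:65497688-65506516 on the plus strand, and its longest transcript is 8708 nt. It had 390, 338 and 340 CPM in the overexpression libraries and 103, 93.1 and 107 CPM in the vector libraries. Every overexpression library was above every vector library, and the spread inside a group was small beside the gap. The means were 356 ± 29.3 CPM against 101 ± 7.33 CPM (SD, n = 3 each), a 3.52-fold higher level, and the fitted log2 fold change was 1.82 ± 0.08 (SE). With each library left out in turn it ran from 1.74 to 1.86.

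NEAT1, the neighbour of MALAT1 at chr11:65422774-65445540 on the same strand, stood the other way. It had 14.1, 15.2 and 13.5 CPM in overexpression and 45.1, 34.0 and 46.1 CPM in vector. All 3 overexpression libraries were below all 3 vector libraries, of which vector replicate 2 was the lowest. The means were 14.3 ± 0.882 CPM and 41.7 ± 6.69 CPM (SD, n = 3 each), a 2.93-fold lower level in overexpression with a fitted log2 fold change of -1.55 ± 0.12 (SE). The gene makes a short form with a poly(A) tail and a long form without one, and the values are per gene and do not separate them. The short form, 3441 nt, lies inside the long form, 22743 nt.

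The balance of these 2 RNAs therefore differed between the groups inside each library. MALAT1 had 27.7, 22.2 and 25.2 times the CPM of NEAT1 in the overexpression libraries and 2.28, 2.74 and 2.33 times in the vector libraries. Per kilobase of the longest transcript, MALAT1 was at 40.9 ± 3.36 CPM per kb in overexpression and 11.6 ± 0.842 in vector, and NEAT1 at 0.627 ± 0.0388 and 1.84 ± 0.294 (SD, n = 3 each). Taken over the short form instead, NEAT1 was at 4.15 and 12.1 CPM per kb. On that length the vector mean of NEAT1 was a little above that of MALAT1, while on the long length MALAT1 was above NEAT1 in both groups. How evenly the 2 RNAs were captured was not tested.

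RPPH1, the catalytic RNA of RNase P, was nearly missing from the overexpression libraries. It had 0, 29 and 36 estimated counts there and 505, 487 and 473 in the vector libraries. The groups lay far apart, and overexpression replicate 1 held no count at all, which allows up to the floor of 12 estimated counts in that library. The means were 0.318 ± 0.288 CPM and 7.25 ± 1.36 CPM (SD, n = 3 each), a 22.8-fold lower level in overexpression. The fitted log2 fold change was -4.50 ± 0.76 (SE). It was -5.16 without overexpression replicate 3 and -5.83 with limma-voom, so the size of the difference is known less well than its direction. The annotated gene AL355075.4 covers all 333 bp of RPPH1 on the same strand, and its symbol is not in the deposited gene table. How shared reads were divided is not given in the sources used here.

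RN7SL1 and RN7SL2, the 2 genes of 7SL RNA, were higher in overexpression with a wide spread. RN7SL1 had 12.4, 5.19 and 12.0 CPM in overexpression and 0.931, 2.68 and 0.976 CPM in vector. RN7SL2 had 26.1, 9.97 and 29.2 CPM in overexpression and 0.448, 5.43 and 1.09 CPM in vector. In both genes overexpression replicate 2 was the low library of its group and vector replicate 2 the high one of its own, and these 2 came nearest to each other without meeting. RN7SL1 means were 9.87 ± 4.06 CPM against 1.53 ± 0.995 CPM (SD, n = 3 each), 6.46-fold higher, with a fitted log2 fold change of 2.68 ± 0.49 (SE). RN7SL2 means were 21.8 ± 10.3 CPM against 2.32 ± 2.71 CPM (SD, n = 3 each), 9.36-fold higher, with a fitted log2 fold change of 3.20 ± 0.80 (SE). The sizes rest on vector replicate 2: without it the fitted log2 fold change was 3.36 for RN7SL1 and 4.78 for RN7SL2.

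Since the reads of these copies can be divided between genes, the copies were also summed. RN7SL3, with 97.7% identity to RN7SL1, had 15, 2 and 19 estimated counts in overexpression and 0, 3 and 2 in vector and did not pass the filter. RN7SL4P, named as a pseudogene of 7SL, with a longest run of 133 bases identical to RN7SL1, had 339, 122 and 360 against 7, 23 and 12. RN7SL5P, whose longest run identical to RN7SL1 is 209 bases, had 202, 86 and 182 against 2, 13 and 6. Both pseudogenes showed the order of libraries seen in RN7SL1 and RN7SL2, with overexpression replicate 2 low and vector replicate 2 high. Summed over these 5 copies, there were 3054, 1338 and 3198 estimated counts in overexpression against 89, 693 and 160 in vector, and the groups did not overlap. The sum had a fitted log2 fold change of 3.18 ± 0.64 (SE). RN7SL2 had 2.10, 1.92 and 2.43 times the counts of RN7SL1 in overexpression and 0.481, 2.03 and 1.12 times in vector. The division between RN7SL1 and RN7SL2 was thus steady in overexpression and in vector replicate 2, and different in the 2 vector libraries with the fewest counts. The pseudogenes did not share this. RN7SL4P had 0.421, 0.316 and 0.469 times the counts of RN7SL1 in overexpression and 0.130, 0.106 and 0.182 times in vector. RN7SL5P had 0.251, 0.223 and 0.237 times in overexpression and 0.0370, 0.0602 and 0.0909 times in vector. The other 675 symbols that start with RN7SL, nearly all of them pseudogenes scattered over the genome, summed to 23.3, 22.2 and 22.1 CPM of the unscaled totals in overexpression and 15.4, 15.9 and 16.3 in vector. These shares did not overlap either, with an exact two-sided permutation p of 0.1, the smallest that 3 libraries against 3 can give, and their gap was far smaller than that of the 5 copies.

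**Figure D2:**
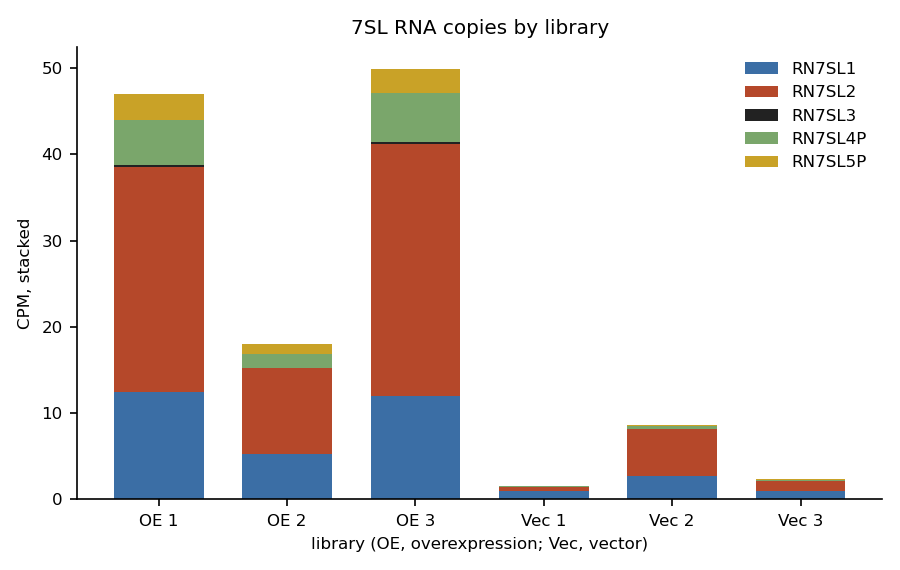
Stacked CPM of RN7SL1, RN7SL2, RN7SL3, RN7SL4P and RN7SL5P (vertical axis, starting at 0) in each overexpression (OE) and vector (Vec) library. RN7SL2 is the largest piece in every overexpression library, where it had 26.1, 9.97 and 29.2 CPM, and the vector library with the tallest bar is replicate 2.

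RN7SK, the RNA that holds P-TEFb inactive, was close to the floor. It lies at chr6:52995621-52995948 on the plus strand and had 24, 33 and 33 estimated counts in overexpression and 10, 25 and 13 in vector. The groups did not overlap in CPM, where they had 0.370, 0.443 and 0.516 against 0.172, 0.310 and 0.192. The means were 0.443 ± 0.0733 CPM and 0.225 ± 0.0743 CPM (SD, n = 3 each), and the fitted log2 fold change was 0.96 ± 0.42 (SE), which was not among the calls. RMRP, at chr9:35657751-35658018 on the minus strand, had 0, 0 and 16 estimated counts in overexpression and 6, 3 and 0 in vector. Only overexpression replicate 3 was above the floor, the groups overlapped, and a difference in RMRP was not detectable at counts this low. RPPH1 and RMRP could therefore not be compared in their response, although their proteins are largely shared.

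Per kilobase of transcript the order of the RNAs was not the same in the groups. These levels are of sequenced counts. RNAs that are short or lack a poly(A) tail can be captured unevenly, which was not tested, so the order is not one of amounts in the cell. In overexpression RN7SL2 was the highest at 72.5 ± 34.4 CPM per kb, followed by MALAT1 at 40.9 ± 3.36 and RN7SL1 at 33.0 (n = 3 each), and the libraries of neighbours in this order overlapped. RN7SK at 1.35 ± 0.223, RPPH1 at 0.954 ± 0.866 and the long length of NEAT1 at 0.627 ± 0.0388 formed a low group. In vector RPPH1 was the highest at 21.8 ± 4.07 CPM per kb, above MALAT1 at 11.6 ± 0.842 in every library. RN7SL2 at 7.75 ± 9.03 and RN7SL1 at 5.11 followed, and their libraries overlapped with each other, and those of RN7SL2 also with MALAT1 and NEAT1. In vector replicate 2 RN7SL2 reached 18.1 CPM per kb, level with the lowest value of RPPH1. NEAT1 was at 1.84 ± 0.294 and RN7SK at 0.686 ± 0.226.

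The genes nearest to each RNA on the chromosome were then read from the fit over all genes. PARP2, a DNA repair gene that starts 175 bp from RPPH1 on the other strand, had a log2 fold change of 0.11 ± 0.11 (SE; edgeR adjusted p = 0.454), at 60.6 ± 1.74 CPM in overexpression and 56.1 ± 9.39 CPM in vector. On the other side of RPPH1, CCNB1IP1 rose by 0.27 ± 0.06 (edgeR adjusted p = 0.00484). Of the 10 genes tested within 250 kb of RPPH1, 2 rose and 1 fell, and the lowest of their log2 fold changes was -0.18, of PNP, named after its value was seen. NEAT1 and MALAT1 are 52148 bp apart, and FRMD8, on the outer side of NEAT1, fell by 0.26 ± 0.06 (edgeR adjusted p = 0.0113). Around MALAT1, 4 of 18 genes tested rose and 7 fell, and around NEAT1 3 rose and 7 fell of 18, NEAT1 and MALAT1 themselves not counted. Over all genes tested 22.6% were called higher and 23.4% lower, and the rises around RPPH1, MALAT1 and NEAT1 were near that share.

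RN7SL1 lies within the span of RPS29, a ribosomal protein gene on the opposite strand, without touching its exons. RPS29 fell by 0.71 ± 0.06 (edgeR adjusted p = 6.86e-05), from 84.3 ± 6.50 to 51.5 ± 0.661 CPM, while RN7SL1 was higher in overexpression. LRR1 on the other side had -0.16 ± 0.09 (edgeR adjusted p = 0.173) and RPL32P29 had 1.21 ± 0.51 (edgeR adjusted p = 0.0865). Beside RN7SL2, NEMF had -0.06 ± 0.07 (edgeR adjusted p = 0.546) and ARF6 0.04 ± 0.07 (edgeR adjusted p = 0.607). Beside RN7SK, GSTA4 had -0.40 ± 0.16 (edgeR adjusted p = 0.0752) and FBXO9 0.16 ± 0.06 (edgeR adjusted p = 0.0598). RMRP sits between genes that fell: CCDC107, 272 bp away, fell by 2.19 ± 0.21 (edgeR adjusted p = 9.26e-05), from 11.7 ± 1.99 to 2.55 ± 0.531 CPM. SIT1, which encodes a T-cell adaptor protein, fell by 1.01 ± 0.06 on the other side. Around RMRP 3 of 15 genes tested rose and 9 fell, beside 22.6% and 23.4% of all genes tested, and the rises were near that share. Annotated transcripts also overlap the exons of MALAT1, NEAT1, RPPH1, RN7SL1 and RN7SK. On the same strand, AL355075.4 covers all 333 bp of RPPH1, AL139099.4 all 299 bp of RN7SL1 and RF00100 all 328 bp of RN7SK. A strand setting, which is not given in the sources used here, would not part those reads. Reads inside these same-strand overlaps can therefore not be told apart by position. AL355075.4, AL139099.4 and RF00100 are not among the symbols of the deposited gene table, so they have no values here.

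**Figure D3:**
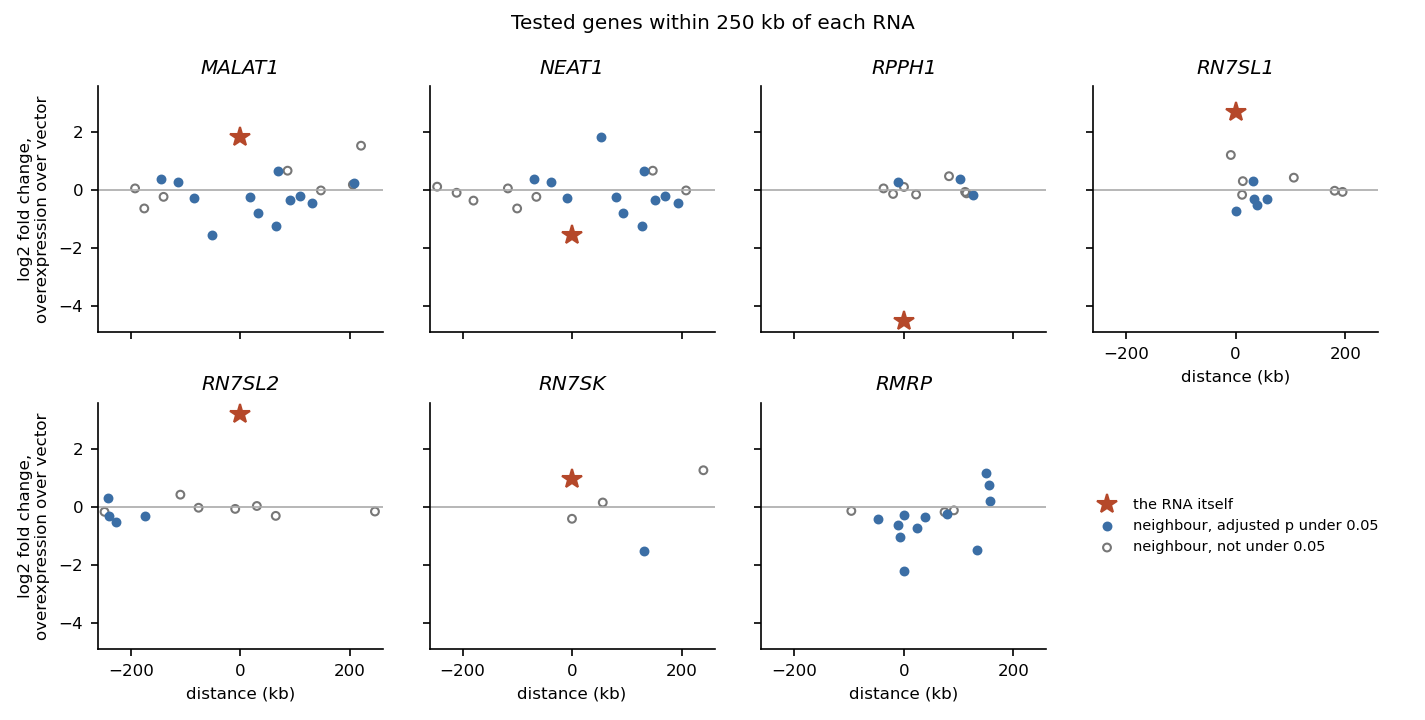
Fitted log2 fold change (vertical axis, overexpression over vector) of the tested genes within 250 kb of each RNA, by distance in kb (horizontal axis); stars are the RNAs themselves, filled points have an edgeR adjusted p under 0.05 and open points do not, and RMRP, which was not tested, has no star. RPPH1, at -4.50, lies far below all 10 of its tested neighbours, and RN7SL1 and RN7SL2, at 2.68 and 3.20, above theirs. The RNAs were chosen with this contrast known, so nothing is read from these gaps.

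The genes whose profile over the 6 libraries was most like that of each RNA were found by the root mean square (RMS) difference between log2(CPM + 1) profiles centred on their own means, among 13968 genes with at least 100 estimated counts on average. The added 1 flattens genes of low level, so genes that are near on this measure can differ in fold. Nearest to MALAT1 were IFI35, ZEB2 and GOLGA8A, with RMS differences of 0.0815, 0.0893 and 0.0958. Their fitted log2 fold changes were 2.49, 4.10 and 1.75, beside 1.82 for MALAT1. GOLGA8A, a golgin-family gene of high level, had 128 ± 0.866 CPM in overexpression and 38.1 ± 3.95 CPM in vector (SD, n = 3 each). Nearest to NEAT1 were SAMSN1, ARAP2 and RSAD2, with 0.0667, 0.0785 and 0.0896. SAMSN1, which encodes an adaptor of lymphocytes, had 4.40 ± 0.432 CPM and 13.1 ± 1.77 CPM, and RSAD2, an interferon-induced antiviral gene, 6.49 ± 0.614 CPM and 18.1 ± 2.80 CPM. Nearest to RPPH1 were ZNF85, FGD3 and CD96, with 0.196, 0.199 and 0.227. Their fitted log2 fold changes were -5.14, -2.77 and -2.69, beside -4.50 for RPPH1. ZNF85, a zinc finger gene, had 0.175 ± 0.216 CPM in overexpression and 6.45 ± 0.473 CPM in vector. The gene nearest to RN7SL1 was its own copy RN7SL4P, at 0.265, followed by ZNF423 at 0.304 and HYDIN2 at 0.329. RN7SL2 had no close match: its nearest were GAB2, GNAO1 and VEGFA at 0.591, 0.608 and 0.613. For RN7SK, whose level is far below the added 1, TBC1D2B, DVL1 and PCCB were nearest at 0.0132, 0.0203 and 0.0222. With groups this far apart, likeness rests mostly on the difference between the groups, and it says nothing of a shared control.

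The genes that work with these RNAs were read by lists, beside all 21055 genes tested, whose median log2 fold change was 0.02 and of which 22.6% were called higher and 23.4% lower. Among 20 proteins of nuclear speckles and partners of MALAT1, 13 fell and 1 rose, and the median was -0.24. SON, a large scaffold protein of speckles, fell from 553 ± 15.1 to 397 ± 10.2 CPM (log2 fold change -0.48 ± 0.04, SE; edgeR adjusted p = 6.66e-05). CLK1, a kinase of splicing factors, fell by 0.65 ± 0.06 (edgeR adjusted p = 7.29e-05), and the splicing factor gene SRSF5 rose by 0.28 ± 0.07 (edgeR adjusted p = 0.0109). So MALAT1 stood higher while most of these protein genes were modestly lower.

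Among 20 paraspeckle proteins 3 rose, 7 fell and 10 were not called, with a median of -0.07. That is near the 46.1% called among all genes, and the median was 0.03 with library totals alone, so nothing is read from the list as a whole. The 2 core proteins that pair with each other differed in direction: NONO rose by 0.21 ± 0.04 (edgeR adjusted p = 0.00181), from 728 ± 4.98 to 842 ± 5.16 CPM, and PSPC1 fell by 0.52 ± 0.04 (edgeR adjusted p = 4.64e-05), from 126 ± 1.76 to 88.1 ± 1.52 CPM. SFPQ had -0.22 and was not called (edgeR adjusted p = 0.0816). NUDT21, a subunit of the cleavage factor that takes part in choosing between the short and long forms of NEAT1, rose by 0.66 ± 0.06 (edgeR adjusted p = 7.74e-05), and its partner CPSF6 had -0.04 (edgeR adjusted p = 0.594). HNRNPK, which counters that cleavage, fell by 0.60 ± 0.04 (edgeR adjusted p = 1.60e-05), from 883 ± 23.1 to 581 ± 8.23 CPM. The remaining riser was HNRNPH3, named after its value was seen, at 0.24.

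Among 13 genes of the protein subunits of RNase P and RNase MRP and of the tRNA 3′ nucleases, 3 rose and 5 fell, with a median of -0.12. Of all genes tested 22.6% were called higher and 23.4% lower, and the rises were near that share. POP1, the largest protein subunit, fell by 1.39 ± 0.07 (edgeR adjusted p = 5.18e-06), from 64.7 ± 5.02 to 24.7 ± 0.629 CPM. RPP40 fell by 0.66 ± 0.12 (edgeR adjusted p = 0.00234), and RPP21 and POP5 rose by 0.71 ± 0.08 and 0.50 ± 0.06 (edgeR adjusted p = 0.000217 and 0.000441). RPP25 at 1.17, POP7 and RPP25L at -0.38 each and RPP14 at -0.29 were the other calls, named after their values were seen. ELAC2, the nuclease that cuts behind tRNAs, had -0.14 and was not called (edgeR adjusted p = 0.0776). The fitted log2 fold change of RPPH1, -4.50, was further from 0 than that of any of these 13 genes. RPPH1 was chosen with this contrast known, so nothing is read from that. Without overexpression replicate 1 or without overexpression replicate 3, 3 of the 13 fell.

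Of the 8 genes of SRP proteins and of the SRP receptor, 5 fell and 0 rose by edgeR, beside 23.4% and 22.6% of all genes. Their median was -0.14. None was higher at an unadjusted edgeR p under 0.05, and DESeq2 and limma-voom called 0 higher. SRP9, whose protein binds the Alu end of 7SL, fell by 0.83 ± 0.05 (edgeR adjusted p = 1.18e-05), from 380 ± 6.86 to 214 ± 11.4 CPM, and SRPRB, a receptor subunit, by 0.40 ± 0.07 (edgeR adjusted p = 0.00201). SRP14, the partner of SRP9, had 0.01 (edgeR adjusted p = 0.829), and SRP54, which binds the signal peptide, -0.03 (edgeR adjusted p = 0.688). The other falls, named after their values were seen, were SRP19 at -0.22, SRP72 at -0.17 and SRPRA at -0.12. RN7SL1 and RN7SL2 were higher in the libraries in which these 5 genes were lower. Leaving out replicate 1 or 3 of either group brought the count to 3 of 8.

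In the 14 genes of the 7SK particle, P-TEFb and the elongation complexes 3 rose and 5 fell, beside 22.6% and 23.4% of all genes, with a median of -0.12, and the rises were near the share over all genes. CDK9, the kinase of P-TEFb, fell by 0.86 ± 0.06 (edgeR adjusted p = 2.32e-05), from 88.2 ± 5.05 to 48.7 ± 2.16 CPM, and its cyclin gene CCNT2 by 0.54 ± 0.08 (edgeR adjusted p = 0.000635). AFF1, a scaffold of the super elongation complex, which carries P-TEFb, rose by 0.56 ± 0.04 (edgeR adjusted p = 2.52e-05). ELL2 at 0.66, MLLT3 at -0.54, CCNT1 at -0.32 and MLLT1 at -0.28 were also called, and are named after their values were seen. HEXIM1, which binds RN7SK to silence the kinase, had -0.04 (edgeR adjusted p = 0.668), and LARP7, which protects the 3′ end of RN7SK, 0.12 (edgeR adjusted p = 0.388).

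RNA polymerase III makes 5 of the 7 RNAs. Of 34 genes of the polymerase, its initiation factors and its regulators, 19 fell and 3 rose, beside 23.4% and 22.6% of all genes. Their median was -0.30. GTF3C4 fell by 1.29 ± 0.04 (edgeR adjusted p = 9.25e-07), from 152 ± 1.14 to 62.4 ± 1.12 CPM, and GTF3C5 by 0.81 ± 0.06 (edgeR adjusted p = 2.96e-05), both subunits of the factor TFIIIC. POLR3GL and POLR3C rose by 0.70 ± 0.08 and 0.35 ± 0.05 (edgeR adjusted p = 0.000315 and 0.00115), and the remaining riser was SNAPC5 at 0.52, named after its value was seen. Within this one class of transcripts, RPPH1 was lower and RN7SL1 and RN7SL2 were higher. Of 26 genes of the nuclear RNA exosome, its cofactors and the 3′ trimming enzymes, 12 fell and 5 rose, with a median of -0.21. The rises were near the 22.6% of all genes called higher, and 23.4% of all genes were called lower. EXOSC2 and TENT4B fell by 0.66 ± 0.05 and 0.74 ± 0.06 (edgeR adjusted p = 3.97e-05 and 5.42e-05), and EXOSC8 and EXOSC1 rose by 0.49 ± 0.05 and 0.46 ± 0.06 (edgeR adjusted p = 0.000165 and 0.000467). The other risers, named after their values were seen, were ZCCHC8 and XRN1 at 0.46 each and PARN at 0.18.

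**Figure D4:**
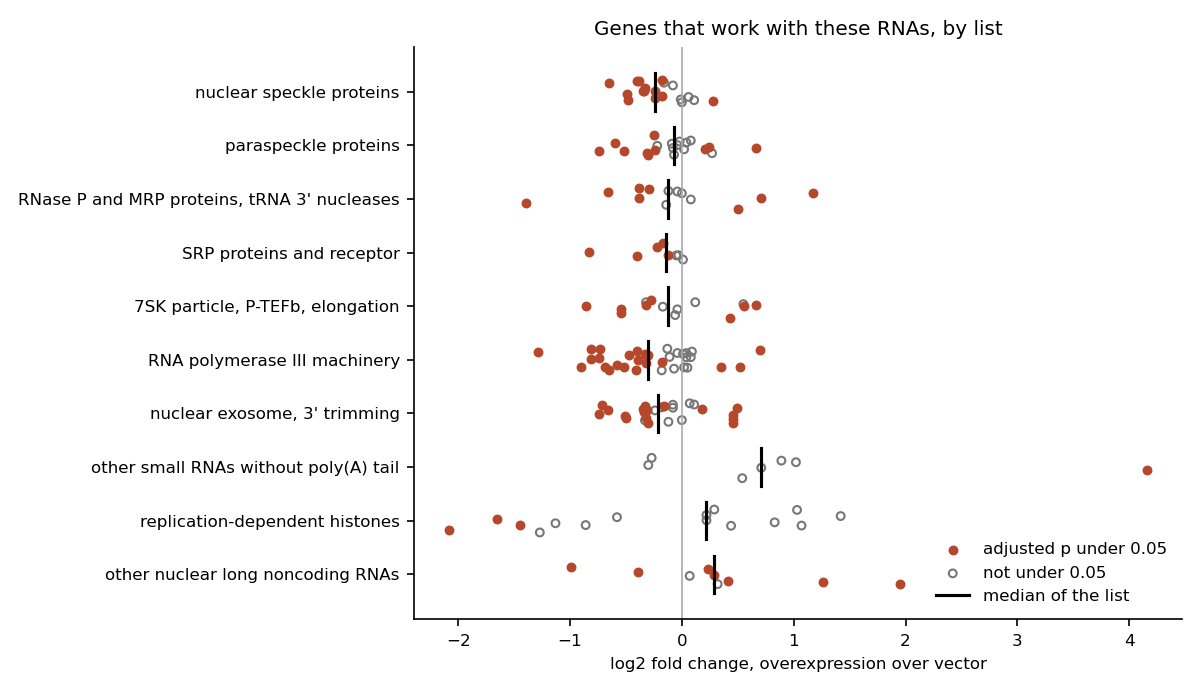
Fitted log2 fold change (horizontal axis, overexpression over vector) of every tested gene, by list (vertical axis); filled points have an edgeR adjusted p under 0.05, open points do not, and bars are list medians. The medians of the protein lists lie between -0.30 and -0.07, and that of the other nuclear long noncoding RNAs is 0.29; the medians of the small RNAs and histone genes, 0.71 and 0.22, depend on which genes pass the filter and were -0.00 and -0.45 with no filter.

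Other small RNAs without a poly(A) tail were mostly out of reach of these libraries. Of 44 symbols of such RNAs listed, among them spliceosomal, Y and vault RNAs, 43 were in the table and 7 passed the filter. BCYRN1, the BC200 RNA, which shares its Alu-like front with 7SL, was the only one called by edgeR and was named after its values were seen. It had 23, 24 and 13 estimated counts in overexpression and 0, 0 and 3 in vector, so all vector libraries were under the floor of 12 and all overexpression libraries only a little above it. The U6 genes RNU6-1 and RNU6-2 had 26, 26, 18 and 22, 31, 26 estimated counts in overexpression against 14, 17, 12 and 13, 17, 13 in vector, and neither was called (edgeR adjusted p = 0.207 and 0.103). The other tested genes, named after their values were seen, lay on both sides. RNU1-3 and RNU1-4 had log2 fold changes of -0.27 and -0.30, RNU6-9 and SCARNA10 0.54 and 1.02, and none of these was called. The list summed to 3.18 ± 0.112 CPM of the unscaled totals in overexpression and 2.23 ± 0.140 in vector (n = 3 each, SD; exact two-sided permutation p = 0.1). The 5 small RNAs described here summed to 40.3, 16.5 and 44.3 CPM of the unscaled totals in overexpression and 10.0, 13.9 and 8.97 in vector, most of it RN7SL2 and RN7SL1 in overexpression and RPPH1 in vector replicates 1 and 3.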

How the data were processed

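RNA-seq of 6 Jurkat libraries, 3 per group, was used as the authors' deposited table of estimated counts per gene symbol, whose values were already whole and differ in their sums between libraries. The submitters' processing notes name the tools fastp 0.23.2, STAR 2.7.10a, StringTie, DESeq2 and the build hg38; the annotation release and strand setting are not given in the sources used here. In these deposited estimated counts 4 was more frequent than 3 in 6 of 6 libraries and 8 more frequent than 7 in 5, as if 1 read pair added about 4. The commonest value above 0 was nevertheless 1, with 2716 to 3651 genes per library, which goes against such a unit. It is not settled, and a smaller unit would lower the floor, so the floor of 3 read pairs, or 12 estimated counts, covers counting error only and no counting intervals are given. All columns were used.

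Genes kept by filterByExpr were scaled by TMM and compared with edgeR 4.0.16 (R 4.3.3), by the quasi-likelihood test with group as the only term and Benjamini-Hochberg adjustment over 21055 genes (threshold 0.05), after the code was tested on simulated data. Standard errors come from the same statistic. The members and gene lists were chosen with earlier results of these data known. Named are the 7 RNAs and PDCD1, up to 2 risen and 2 fallen called genes per list of smallest adjusted p, given at least 100 estimated counts on average (20 for small RNAs), the 3 genes nearest in profile (pseudocount 1), and the nearest tested or overlapping neighbours. Exceptions are marked, and a few items within the rule are not reported here. Positions, lengths and sequences came from GENCODE 29 on GRCh38, the assembly named hg38, and levels per kb use the longest transcript. Sequences were aligned with Biopython 1.88, and figures drawn with matplotlib 3.10.9. Alternatives were DESeq2 1.42.0, limma-voom (limma 3.58.1), other scaling factors, other filters, a replicate block, each library left out, the 7 RNAs left out of totals, division by 4 and summed RN7SL copies; the sum of 5 copies was chosen after seeing the data.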

Additional observations from a re-analysis of the deposited data

How the results depend on the processing

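No count and no fold change of the 7 RNAs reversed. Of 22 counts under 16 alternatives each, 339 values stayed within 1.5 times the main one and 13 did not. RN7SL1 and RN7SL2 had 18 alternatives, and 95 fold changes of the RNAs stayed within the spread between replicates and 3 did not. With library totals alone the median of all genes was 0.12 on the log2 scale and 5958 genes were higher and 3932 lower, against 4768 and 4937 with TMM. In that setting 3 speckle genes were higher (2 with upper-quartile factors, 1 with TMM), 3 genes of RNase P and MRP proteins and 2 of SRP proteins were lower (5 each with TMM). The cause was not tested. List medians changed sign for paraspeckle genes in 1 alternative (0.03, library totals alone) and for histone genes in 6: -0.45 with no filter, -1.63 with the stricter filter, -0.59 with values divided by 4, and -0.24, -0.42 and -0.05 without overexpression replicate 1, overexpression replicate 3 and vector replicate 1. Among small RNAs without a tail 0 were higher under the stricter filter and with values divided by 4, where none was tested. Leaving out each library gave 3 to 6 lower genes for both RNase P and SRP proteins, -5.16 to -3.93 for RPPH1, 2.42 to 3.36 for RN7SL1, 2.72 to 4.78 for RN7SL2 and 0.80 to 1.26 for RN7SK on the log2 scale.

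The labels number the libraries 1 to 3 in each group, but deviations of same-numbered libraries correlated at 0.005, 0.001 and 0.023, so the numbers were not taken to pair them. With the replicate block 4217 genes were higher and 4473 lower, 3 SRP genes were lower, and RN7SL2 had a log2 fold change of 3.72. RMRP, RN7SK and most other small RNAs lie near or under the floor of 12 estimated counts. Whether depth, capture or the division of reads keeps them there was not tested. With 3 libraries per group, no outlying library can be tested for.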

Other observations

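Of 15 symbols of other long noncoding RNAs, listed for a place in the nucleus, 9 were tested, 5 rose and 2 fell, beside 22.6% and 23.4% of all genes tested. Their median log2 fold change was 0.29 beside 0.02 for all genes. LINC-PINT rose from 2.44 ± 0.771 to 9.41 ± 0.315 CPM (n = 3 each, SD), a log2 fold change of 1.95 ± 0.24 (edgeR adjusted p = 0.000365). HOTAIRM1, transcribed from the HOXA cluster, rose by 1.26 ± 0.16 (edgeR adjusted p = 0.000399). TUG1 at 0.41, CHASERR at 0.29 and NORAD, which is mainly cytoplasmic and so no example of the class, at 0.23 were the other rises, named after their values were seen. MIAT fell by 0.99 ± 0.22 (edgeR adjusted p = 0.00705) and FTX, from the X-inactivation centre, by 0.39 ± 0.08 (edgeR adjusted p = 0.00396). Together with MALAT1 and NEAT1, nuclear RNAs thus stood on both sides.

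Replication-dependent histone mRNAs end in a stem-loop in place of a poly(A) tail. Of 30 such genes 15 were tested, and 3 fell and 0 rose by edgeR, beside 23.4% and 22.6% of all genes tested. The falls were near that share, while the median was 0.22. That median changed sign in 6 of 16 alternatives, to -0.45 with no filter and to -0.42 without overexpression replicate 3, so the list has no settled direction. None was higher at an unadjusted edgeR p under 0.05, and DESeq2 and limma-voom called 0 higher. H2AC6 fell by 1.65 ± 0.22 (edgeR adjusted p = 0.000538) and the linker histone gene H1-2 by 2.08 ± 0.29 (edgeR adjusted p = 0.000707), from 10.0 ± 3.54 to 2.36 ± 0.423 CPM. H4C8, named after its value was seen, had -1.45 (edgeR adjusted p = 0.0304). The histone list summed to 12.7 ± 1.77 CPM of the unscaled totals in overexpression and 23.7 ± 5.39 in vector (n = 3 each, SD; exact two-sided permutation p = 0.1). H1-2 and H2AC6 carried this gap: the other 28 genes summed to 8.48, 7.05 and 9.38 CPM of the unscaled totals in overexpression and 8.31, 7.46 and 9.07 in vector, and the groups overlapped.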
